A study of Mus musculus with 24 samples.

Results

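The opioid system of the mouse lumbar spinal cord was described through 7 genes, chosen by name from the 32962 genes in the deposited count table. They are the opioid peptide precursor genes Penk, Pdyn and Pnoc and the opioid receptor genes Oprm1, Oprk1, Oprd1 and Oprl1. All 7 were present in the table, and each was followed through the classes, families and populations of nuclei that the authors had assigned. Opioid peptides are cut from larger precursors and act on G protein-coupled receptors that couple to inhibitory G proteins. Through these G proteins the receptors open potassium channels, close calcium channels and lower adenylyl cyclase activity, so that neurons fire less and release less transmitter. In the dorsal horn of the spinal cord, where pain signals from the skin arrive, this system is known as a brake on pain transmission and as a site where morphine acts.

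Nuclei came from male and female ICR/CD-1 mice, an outbred stock, aged 8 to 11 weeks, and were profiled by Drop-seq, in which each captured RNA molecule carries a unique molecular identifier (UMI). The 24 mice formed 3 groups: 10 formalin mice, given 30 µl of 2% paraformaldehyde under the skin of the sole of each hind paw, 5 rotarod mice, placed on a rod that sped up to 40 rotations per minute within 5 minutes, and 9 control mice. The formalin and rotarod mice had been habituated beforehand, while the handling of control mice and the time between stimulus and dissection were not stated. The lumbar cord was dissected and the dorsal root ganglia were removed, while the labels name the tissue as brain. Neuron nuclei held 131 CPM (UMIs of a gene or list per 1000000 UMIs in the same nuclei) of 9 Hox9 to Hox11 genes, which mark the lower cord, with 86.6 to 164 CPM per mouse, against 7.42 CPM of 4 forebrain genes and 16.2 CPM of 7 dorsal root ganglion genes, which reached 54.1 CPM in the highest mouse.

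The table held 18000 nuclei, 750 per mouse, of which 13425 had 1 of 7 classes, 3818 were marked as discarded and 757 had no label. Of 7103 neurons, 4280 were placed in 43 populations of 8 families, DE, DI, ME, MI, VE, VI, VC and VM. In these codes D stands for dorsal, M in first place for mid and V for ventral, followed by E for excitatory or I for inhibitory, a reading that was not applied to the second letter of VC and VM. Slc17a6, the vesicular glutamate transporter of excitatory neurons, stood at 111 CPM in DE against 9.87 CPM in DI, and Gad2, an enzyme that makes GABA, at 140 CPM in DI against 7.67 CPM in DE. The placed share was 50.5% of neurons in formalin, 62.1% in rotarod and 66.8% in control mice. Total UMIs per mouse ran from 549903 to 3243587, and the median neuron held 2214 UMIs, with medians from 830 to 3927.5 UMIs per mouse. No more than 4 of 750 barcodes were shared by any pair of libraries. Formalin replicates 1 to 5 resembled replicates 6 to 10 in numerical order, with correlations of their deviations in neurons from 0.0904 to 0.279, but shared 0 barcodes. Whether they share animals was not tested, so the tests of genes that passed the filter on low counts were also run with these pairs merged.

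The peptide genes differ in what they encode, and the stretches of Penk and Pnoc that hold their peptides are shown for that reason. Penk encodes the enkephalins, Pdyn the dynorphins and Pnoc nociceptin. These peptides begin with a core of 4 residues, which is tyrosine-glycine-glycine-phenylalanine in enkephalins and dynorphins and phenylalanine-glycine-glycine-phenylalanine in nociceptin. The coding stretches below are from GENCODE M21 transcripts on GRCm38, written 5′ to 3′ in the sense of the gene, with the 12 bases of each core in capitals. For Penk the last 4 of its 7 cores are shown.
Penk, chr4:4133848-4134093, minus strand: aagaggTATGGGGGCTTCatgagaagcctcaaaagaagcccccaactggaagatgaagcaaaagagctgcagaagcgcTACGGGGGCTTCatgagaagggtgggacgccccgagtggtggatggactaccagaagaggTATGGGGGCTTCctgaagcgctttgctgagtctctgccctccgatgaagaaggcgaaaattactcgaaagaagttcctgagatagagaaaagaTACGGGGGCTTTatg
Pnoc, chr14:65404842-65404898, minus strand: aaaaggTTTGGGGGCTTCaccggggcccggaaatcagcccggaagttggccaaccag
Penk held 7 cores and Pnoc 1, and each stretch lay within 1 coding exon. Each of these cores followed a pair of codons for the basic residues at which prohormone convertases cut. The codon after the core was ATG, for methionine, in 6 of the 7 Penk cores. It was CTG, for leucine, in the Penk core that starts at codon 231.

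All 7 genes reached their highest pooled level in neurons, except Pnoc, whose level in oligodendrocyte precursors rested on 2 UMIs. Pooled over nuclei, Penk stood at 43.4 CPM in neurons (965 UMIs, exact 95% Poisson interval 40.7 to 46.2, which covers counting error only), against 11.6 CPM in oligodendrocytes, 10.4 in astrocytes and 8.46 in meninges and Schwann cells. Oprm1, which encodes the mu receptor on which morphine acts, stood at 88.5 CPM in neurons (1968 UMIs, interval 84.6 to 92.5), against 22.5 CPM in oligodendrocytes and 17.8 in astrocytes. Oprd1, the gene of the delta receptor for enkephalins, reached 25.3 CPM in neurons, against 2.47 to 9.65 CPM in the other classes where it had any UMI. Oprk1, the gene of the kappa receptor for dynorphins, reached 22.6 CPM in neurons, against 3.17 to 5.28 CPM in the classes with any UMI, and no UMI in 727 endothelial and vascular nuclei, where 0 UMIs allow up to 2.26 CPM. Oprl1, the gene of the nociceptin receptor, reached 11.1 CPM in neurons, against 10.6 CPM in oligodendrocyte precursors from 2 UMIs. It stood at 2.05 CPM in oligodendrocytes and 1.41 CPM in meninges and Schwann cells. Astrocytes, microglia, and endothelial and vascular nuclei had 0 Oprl1 UMIs. In the 1224 astrocytes 0 UMIs allow up to 1.73 CPM, but in microglia up to 14.5 CPM, above the neuron level. Pdyn reached 2.34 CPM in neurons (52 UMIs), against 1.70 CPM in oligodendrocytes (5 UMIs, and 0.712 CPM without formalin replicate 3, which held 3 of them), and Pnoc 6.70 CPM in neurons (149 UMIs), against 10.6 CPM in oligodendrocyte precursors (2 UMIs) and 0.575 to 2.11 CPM in the other classes with any UMI. Levels of different genes were not compared, since the genes span from 5289 bases (Penk) to 279693 bases (Oprm1) and longer genes can give more UMIs from nuclear RNA.

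Within mice the neuron level was the higher one in most cases. Oprm1 was higher in neurons than in meninges and Schwann cells in 24 of 24 mice, Oprk1 in 24 of 24, Oprd1 in 24 of 24 and Penk in 23 of 24. Averaged over mice with at least 10 nuclei of a class, Penk stood at 46.1 ± 19.2 CPM in neurons (SD, n = 24), against 48.3 ± 75.0 CPM in oligodendrocyte precursors (n = 6), where it had 3 UMIs in all, 2 of them in control replicate 3. The averages of Pnoc (7.61 CPM in neurons, against 12.9 CPM in oligodendrocyte precursors) and Oprl1 (11.3 against 12.9 CPM) had the same pattern, each from 2 UMIs in the precursors. No order of neurons and precursors was read from these counts.

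Neuronal RNA was also present outside neurons, and its level is given beside these values. The 5 neuronal markers Snap25, Syt1, Rbfox3, Snhg11 and Meg3 together stood at 38298 CPM in neurons, against 5201 to 16322 CPM in the other 6 classes, with 0 of 5 markers at 0 in any class. That is 13.6% of the neuron level in endothelial and vascular nuclei, 17.4% in astrocytes, 18.0% in meninges and Schwann cells, 18.8% in oligodendrocytes, 23.1% in microglia and 42.6% in oligodendrocyte precursors. Oprm1 stood at 17.01%, 20.2%, 18.7%, 25.4%, 49.1% and 41.7% of its neuron level in the same order of classes, and Penk at 45.1%, 23.9%, 19.5%, 26.7%, 33.4% and 36.5%. The share of the low non-neuronal counts that comes from neuronal RNA was not tested. Penk in endothelial and vascular nuclei stood above the neuronal markers there, with 26 UMIs in 14 of 727 nuclei and 10 mice. Of these UMIs, 9 came from rotarod replicate 2, 1 nucleus held 8, and without that mouse the level was 13.6 CPM, against 19.6 CPM with it.

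**Figure D1:**
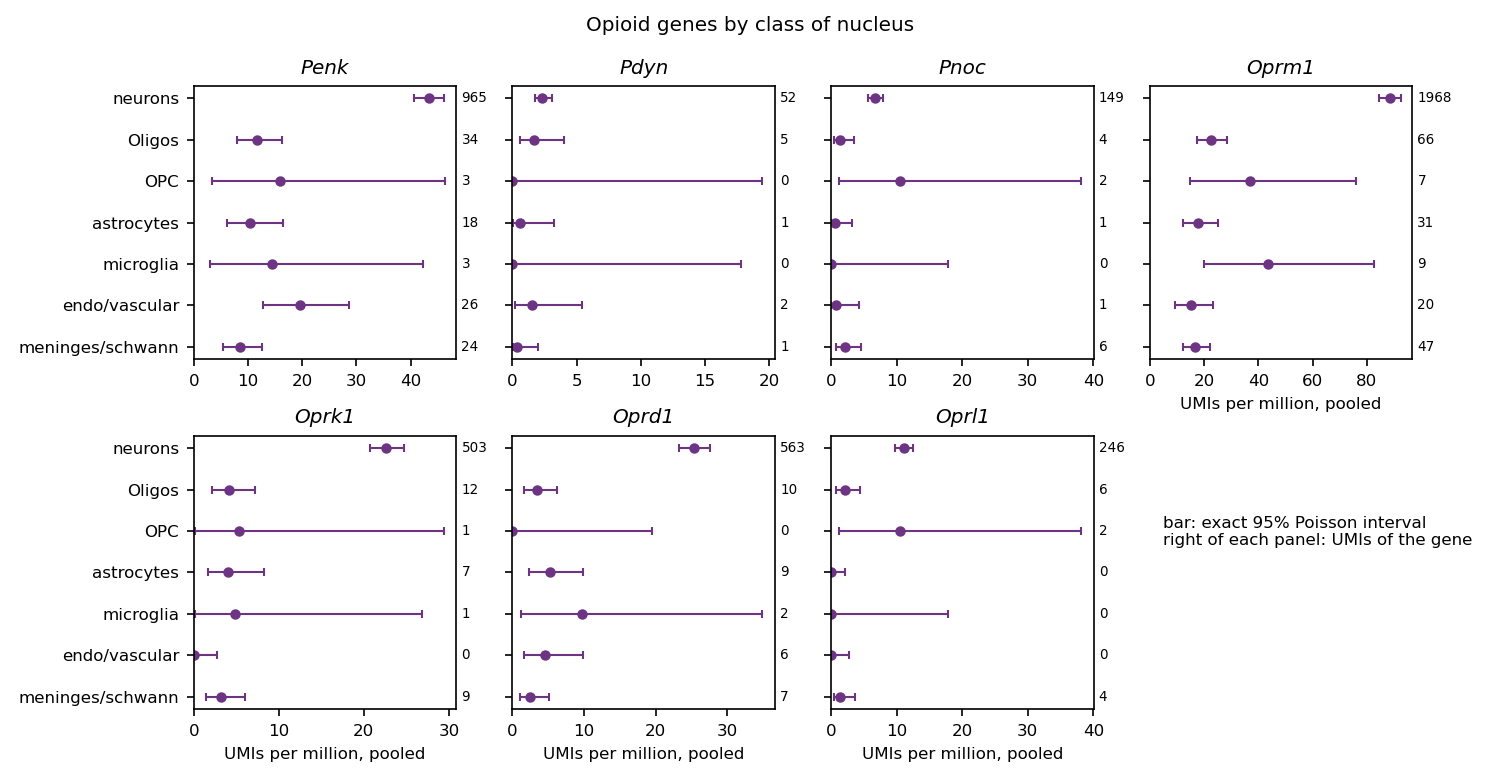
Pooled CPM of each opioid gene (x axis) in the 7 classes of nuclei (rows), with exact 95% Poisson intervals and the UMIs of the gene at the right of each panel. Penk (43.4), Oprm1 (88.5), Oprk1 (22.6) and Oprd1 (25.3) are highest in neurons. Intervals in oligodendrocyte precursors and microglia are wide because these classes hold few UMIs. They overlap the neuron interval for Penk and Oprk1 in both classes and for Oprd1 in microglia, but not for Oprm1.

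Most neurons held no UMI of any of these genes, at a median depth of 2214 UMIs. At least 1 Oprm1 UMI was seen in 15.3% of neurons, against 2.75% of oligodendrocytes, whose median nucleus held 1092 UMIs. Each nucleus with at least 500 UMIs was then thinned to 500 UMIs, and shallower nuclei were dropped. After this the shares were 3.50% of 6947 neurons and 1.66% of 1991 oligodendrocytes. For Penk the shares were 8.62% of neurons against 1.51% of oligodendrocytes, and 2.69% against 0.804% after thinning. Of the 7103 neurons, 4718 (66.4%) held no UMI of any of the 7 genes, 1929 held UMIs of 1 gene, 388 of 2 genes, 58 of 3 and 10 of 4.

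The authors built the families and populations by clustering these same nuclei, so levels between them are given as a description, without a test. Each family level is the mean over mice with at least 5 nuclei of the family. The order of the 8 families was loose: of 49 pairs of neighbouring families in the order of a gene, 0 differed by more than the SD of the within-mouse difference.

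Penk was highest on average in the VC family, followed by DE and ME. It averaged 107 ± 79.8 CPM in VC (SD, n = 22 mice), 77.8 ± 48.4 in DE (n = 24), 67.0 ± 118 in ME (n = 11), 46.9 ± 46.8 in DI (n = 24), 42.8 ± 40.2 in MI (n = 21), 25.5 ± 39.7 in VM (n = 9), 17.5 ± 26.4 in VE (n = 18) and 9.27 ± 9.91 in VI (n = 22). The DE level exceeded the VI level by 66.8 ± 45.5 CPM within mice, and was higher in 20 of 22. The VC level exceeded the VM level by 92.7 ± 58.7 CPM and was higher in 9 of 9 mice with both families. The VC family was also where Chat, the enzyme that makes acetylcholine, was highest, at 62.2 CPM pooled, against 2.04 to 28.5 CPM in the other families. Summed over dorsal families, Penk averaged 64.4 ± 37.8 CPM, against 29.2 ± 21.9 CPM over ventral families (n = 24), and dorsal was higher in 19 of 24 mice, a difference within its SD.

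Pdyn was rare. It had 52 UMIs in all neurons, 33 of them in dorsal families, 4 in ventral families, and 0 in VC and VM. It averaged 4.49 ± 4.67 CPM over dorsal families, against 0.504 ± 1.65 CPM over ventral families (n = 24), and dorsal was higher in 14 of 24 mice and lower in 1, a difference within its SD. The mean was 4.47 ± 6.58 CPM in DI and 4.33 ± 7.49 CPM in DE (n = 24 each). Pnoc was the 1 gene of the 7 whose level, summed over families, split by transmitter beyond its spread. It averaged 14.0 ± 11.0 CPM over inhibitory families, against 2.12 ± 3.18 CPM over excitatory families (n = 24), and was higher in inhibitory neurons in 20 of 24 mice and lower in 1. By family, Pnoc averaged 21.5 ± 21.9 CPM in DI and 16.2 ± 17.8 in MI, against 6.06 ± 7.42 in VI, 4.57 ± 7.78 in VE and 1.66 ± 3.90 in DE. Within mice, DI exceeded DE by 19.8 ± 20.9 CPM (higher in 19 of 24) and VI exceeded VE by 2.84 ± 10.9 CPM (9 of 18). Both differences were within their SD, while MI exceeded ME by 16.8 ± 12.3 CPM (8 of 11). Penk went the other way, lower in inhibitory families in 19 of 24 mice, but within its SD.

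Of the receptors, Oprm1 averaged from 74.1 ± 51.7 CPM in DE (n = 24) to 127 ± 101 CPM in ME (n = 11), and no pair of families differed beyond its spread. Oprk1 averaged 64.1 ± 68.6 CPM in MI (n = 21), against 6.96 ± 13.3 CPM in ME (n = 11). The lowest, median and highest MI mouse stood at 17.9, 45.5 and 342 CPM. Oprd1 averaged 42.5 ± 34.3 CPM in VE (n = 18) and 38.5 ± 31.4 CPM in VI (n = 22), against 18.2 ± 14.9 CPM in DE and 15.6 ± 12.1 CPM in DI (n = 24 each). The ventral families together were higher than the dorsal ones for Oprd1 in 21 of 24 mice, at 34.5 ± 18.6 CPM in ventral and 17.6 ± 9.77 CPM in dorsal neurons, though the difference of 16.9 CPM was within its SD of 20.0 CPM. Oprl1 averaged from 4.17 ± 6.39 CPM in VM to 14.5 ± 21.6 CPM in VC. Among receptors, the pairs of families that differed by more than the SD of their within-mouse difference were Oprk1 in DI above ME, Oprd1 in VI above VC, and Oprl1 in DE and in VI above VM.

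**Figure D2:**
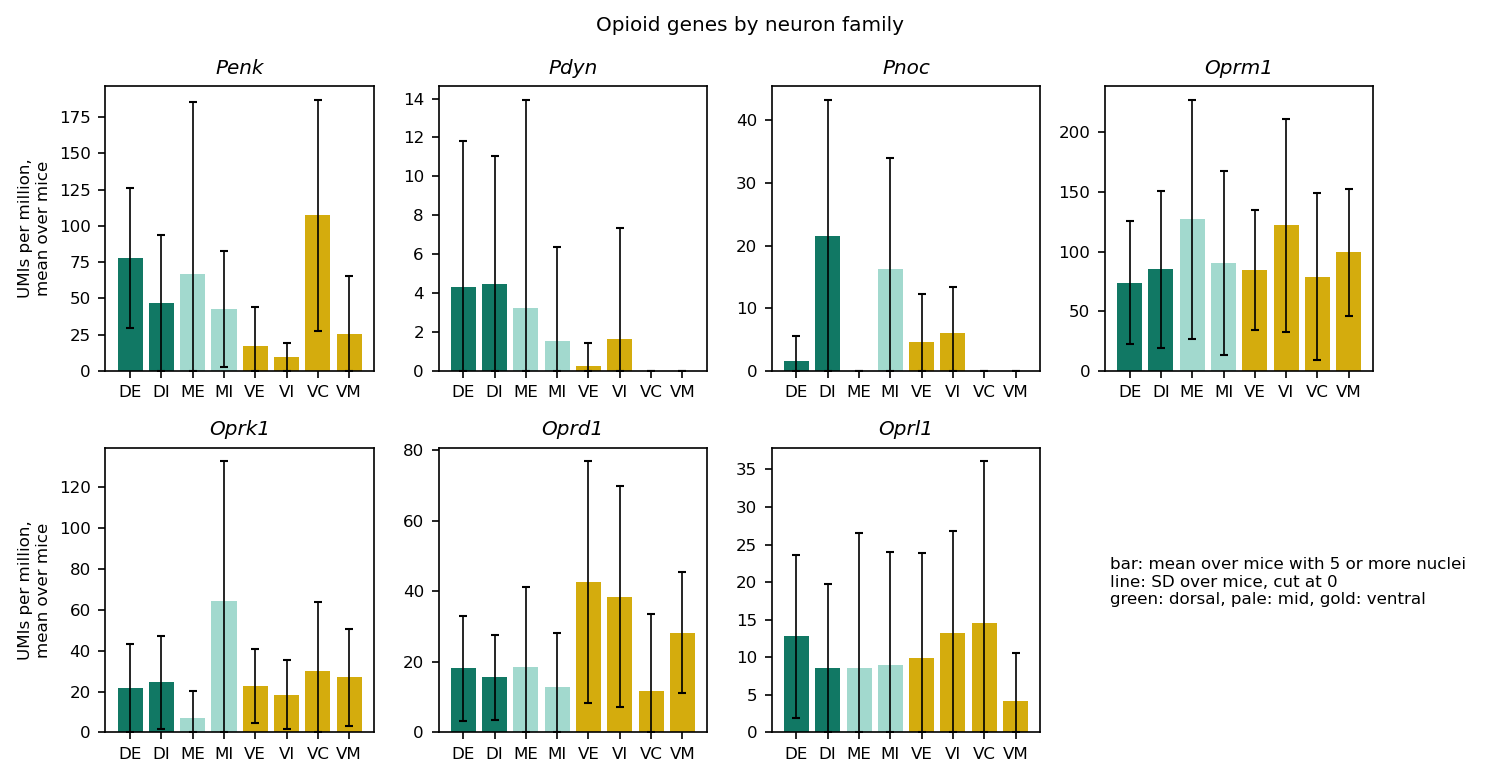
Mean CPM over mice (y axis) of each opioid gene in the 8 neuron families (x axis), with the SD over mice. Penk is highest in VC (107 CPM) and DE (77.8 CPM), Pnoc in DI (21.5 CPM) and MI (16.2 CPM), and Oprd1 in VE (42.5 CPM) and VI (38.5 CPM), with error bars that overlap between most neighbours.

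At the level of populations, 3 dorsal excitatory populations carried the highest Penk. Pooled over mice, Penk stood at 360 CPM in DE-16 (42 UMIs in 66 nuclei, interval 260 to 487), 328 in DE-6 (48 UMIs in 71 nuclei, interval 242 to 435) and 248 in DE-11 (109 UMIs in 157 nuclei, interval 204 to 300). These 3 populations held 26.6% of the Penk UMIs of placed neurons and 4.10% of all their UMIs. Penk UMIs came from 10 of 23 mice with DE-16 nuclei, 16 of 24 with DE-6 nuclei and 21 of 23 with DE-11 nuclei. Without formalin replicate 2, which held 10 of the 42 UMIs, DE-16 stood at 293 CPM. By group, Penk in DE-11 stood at 320 CPM in formalin (44 UMIs), 227 CPM in rotarod (24 UMIs) and 209.8 CPM in control mice (41 UMIs), and in DE-6 at 292 CPM in formalin (13 UMIs), 371 CPM in rotarod (14 UMIs) and 328 CPM in control mice (21 UMIs), values that were not tested. In DE-11 at least 1 Penk UMI was seen in 40.8% of nuclei, against 8.62% of all neurons, at median depths of 2267 and 2214 UMIs. The next populations were DI-5 at 154 CPM (21 UMIs), VC-2 at 152 CPM (76 UMIs) and DI-3 at 132 CPM (47 UMIs), and the median over 43 populations was 24.9 CPM.

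A gene on the opposite strand overlaps Penk, and whether counting used the strand was not stated. This gene, A830012C17Rik, stood at 105 CPM in DE-11, 61.5 CPM in DE-6 and 17.2 CPM in DE-16, against 15.5 CPM in all neurons. Reads from the overlap could be counted for either gene, so these Penk levels are uncertain to that extent. Penk lies on chromosome 4 from 4133531 to 4138819 on the minus strand of GRCm38 in the GENCODE M21 annotation.

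The highest pooled level was in DE-15 for Pdyn and in DI-3 for Pnoc, and most UMIs of both genes lay outside these populations. DE-15 held 17 of the 42 Pdyn UMIs of placed neurons, from 8 of 20 mice, which gave 62.6 CPM (interval 36.5 to 100.2). Rotarod replicate 4 held 5 of them, and the level was 52.3 CPM without it. DI-2 followed with 5 UMIs (39.2 CPM) and DI-3 with 5 (14.1 CPM), and 28 of 43 populations had no Pdyn UMI. DI-3 held 29 of the 112 Pnoc UMIs of placed neurons, from 13 of 22 mice, at 81.6 CPM (interval 54.6 to 117), and DI-1 followed at 26.4 CPM from 6 UMIs. Pnoc lies on chromosome 14 from 65400673 to 65425472.

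Oprm1 was found in every population, and DE-1 stood out. DE-1 held 96 Oprm1 UMIs in 68 nuclei, 525 CPM (interval 425 to 641), against a median of 83.1 CPM over 43 populations. The UMIs came from 14 of 20 mice with DE-1 nuclei. Rotarod replicate 4 held 26 of them, and without it the level was 478 CPM. By group, Oprm1 in DE-1 stood at 419 CPM in formalin (14 UMIs), 542 CPM in rotarod (34 UMIs) and 553 CPM in control mice (48 UMIs). The share of DE-1 nuclei with an Oprm1 UMI was 51.5%, and 19.1% after thinning to 500 UMIs, against 15.3% and 3.50% of all neurons. Next came DE-3 at 219 CPM (16 UMIs, 148 CPM without control replicate 7), DI-1 at 189 CPM (43 UMIs), DE-2 at 177 CPM (32 UMIs) and VI-3 at 169 CPM (31 UMIs, from 4 of 6 mice). VE-2 stood at 143 CPM, but control replicate 7 held 20 of its 45 UMIs, and without it the level was 94.2 CPM. In total 16 populations stood above 100 CPM.

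Oprm1 spans 279693 bases of chromosome 10, from 6758506 to 7038198, and overlaps Ipcef1 and Gm10945 on the opposite strand. In DE-1 Ipcef1 had 5 UMIs (27.3 CPM), against 22.4 CPM in all neurons, and Gm10945 had 0 UMIs. Reads from the overlaps could be counted for either strand, and their part in the Oprm1 level of DE-1 was not tested.

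Oprk1 was highest in dorsal inhibitory populations and Oprd1 in a mixed set. Oprk1 stood at 94.0 CPM in DI-2 (12 UMIs), 64.7 in DI-3 (23 UMIs), 60.5 in DI-4 (18 UMIs) and 58.9 in DE-15 (16 UMIs). Their intervals overlapped, from 33.7 CPM at the lowest bound to 164 CPM at the highest. DE-1, DE-3, DE-4 and DE-6 had no Oprk1 UMI. In DE-1, where Oprm1 was high, 0 UMIs allow up to 16.4 CPM, close to the Oprk1 median of 17.2 CPM over populations. A level below that of other populations was thus not shown for Oprk1 there. Oprk1 lies on chromosome 1 from 5588466 to 5606131. Oprd1 stood at 76.5 CPM in DE-1 (14 UMIs from 8 mice, interval 41.8 to 128), 68.1 in VE-3 (12 UMIs), 59.1 in DI-3 (21 UMIs) and 55.6 in VI-1 (27 UMIs). Oprd1 lies on chromosome 4 from 132110726 to 132144486. Oprl1 had few UMIs in any population, with 6 in DI-5 (44.0 CPM) and 7 in VI-3 (38.1 CPM) as the highest levels. Oprl1 lies on chromosome 2 from 181715016 to 181720985.

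**Figure D3:**
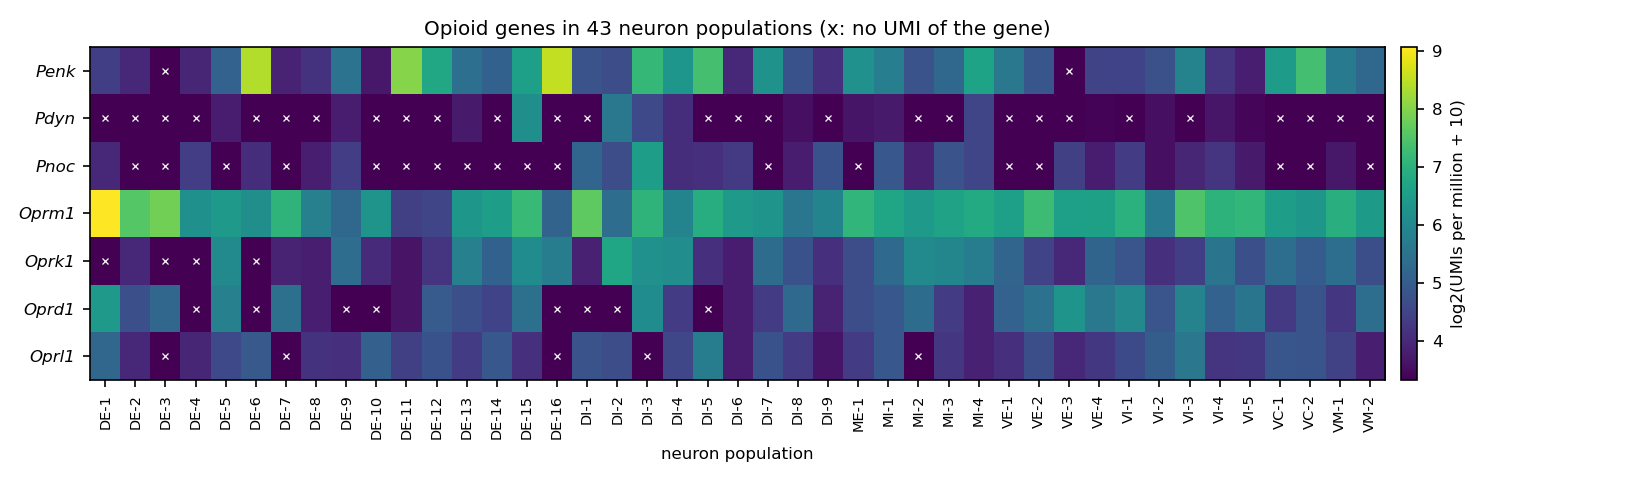
Level of each opioid gene (rows) in the 43 neuron populations (columns), as log2 of pooled CPM plus 10, with crosses where the gene had no UMI. The brightest fields are Oprm1 in DE-1 (525 CPM) and Penk in DE-16 (360 CPM), DE-6 (328 CPM) and DE-11 (248 CPM).

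Some populations held several members of the system. DI-3 was among the 3 highest populations for Pdyn, Pnoc, Oprk1 and Oprd1 and was the sixth for Penk, but had no Oprl1 UMI. Of the 20 DI-3 nuclei with a Pnoc UMI, 6 also held a Penk UMI, and these were 25.0% of the 24 nuclei with Penk. Of the 17 DI-3 nuclei with an Oprk1 UMI, 7 also held Penk and 6 also held Oprd1. In DE-15, 5 of the 12 nuclei with Pdyn also held Penk, which was 35.7% of the 14 nuclei with Penk. Their median depth was 2143 UMIs, below the 2552 of the whole population. In DE-1, 7 of the 10 nuclei with Oprd1 also held Oprm1, which was 20.0% of the 35 nuclei with Oprm1, at a median of 4720 UMIs against 2214.5 in all DE-1 nuclei. Over all neurons, 106 nuclei held both Oprm1 and Oprd1, at a median depth of 7262 UMIs. The product of both genes' shares would give 66.4 there, 5.15 for these genes in DE-1 and 1.95 for Penk and Pdyn in DE-15. In DI-3 it would give 4.53 nuclei for Penk and Pnoc, 3.85 for Penk and Oprk1, and 2.41 for Oprk1 and Oprd1. Some other pairs lay below this product, such as Oprm1 and Oprd1 in DI-3 (3 nuclei against 3.82). Penk and Oprm1 over all neurons did too (90 against 93.6). Deeper nuclei hold UMIs of more genes, and the part of depth in these joint counts was not tested.

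For each opioid gene, the 5 genes with the most similar pattern over the 43 populations were taken from 7657 genes with at least 200 UMIs, by the correlation of log2(CPM + 10). All populations come from the same libraries, and the correlations are a description. Penk was most like Prlr (r = 0.64), the prolactin receptor, then Dram1 (0.62), Prkar2b (0.61), a regulatory subunit of protein kinase A, Enpp5 (0.59) and Tshz1 (0.59). Pdyn was most like Prox1 (0.64), a homeobox transcription factor, then Ccser1 (0.63), Plxdc1 (0.62), Cyp7b1 (0.62) and Vwa5b1 (0.60). Pnoc was most like Pax8 (0.59) and Lhx5 (0.57), transcription factors known from developing dorsal horn inhibitory neurons in the mouse, then Gsap (0.56), Nrxn3 (0.55) and Zmat4 (0.55). These values rest on sparse counts for Pdyn and Pnoc, which had no UMI in 28 and 18 populations.

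Among receptors, Oprm1 was most like Chst9 (r = 0.66), a sulfotransferase gene that stood at 1454 CPM in DE-1, then Rangap1 (0.60), Nhs (0.57), Mgst3 (0.57) and Rtbdn (0.55). Oprk1 was most like Eda (0.65), Ccser1 (0.64), Kcnk2 (0.64), a potassium leak channel, Grin2d (0.63), an NMDA receptor subunit, and Pde7b (0.62). Oprd1 was most like Rffl (0.65), Grik4 (0.63), a kainate receptor subunit, Wwc1 (0.61), Olfm3 (0.57) and Fam105a (0.56). Oprl1 was most like Eif4g2 (0.59), Usp34 (0.55), Ccdc34 (0.53), Dcaf15 (0.52) and Copb1 (0.52). With populations of at least 50 nuclei only, 1 of the 5 genes stayed in the list for Penk and for Oprm1, 2 for Oprl1, 3 for Oprd1, 4 for Pdyn and for Pnoc, and all 5 for Oprk1.

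Other genes of the pathway, and 10 transmitter identity genes, were read from lists of 63 genes in all, 61 of them in the table. Those named in this paragraph were chosen after their values were seen. Of the enzymes that make peptides, Pcsk2, a prohormone convertase, stood at 797 CPM in DE and 642 CPM in DI, against 326 to 457 CPM in the other families. Pcsk1, the other convertase of this pair, stood at 51.1 CPM in DE, against 8.32 to 34.6 CPM elsewhere. Pam, which amidates peptides, stood at 600.5 CPM in DE and 274 CPM in VI. The peptidase gene Mme (neprilysin), whose enzyme degrades enkephalins, stood at 155 CPM in DE-2, against 27.0 CPM in all neurons. Among G protein subunits, Gng2 stood at 314 CPM in DE-3, against 77.8 CPM in all neurons. Among channels gated by these receptors, Kcnj3 and Kcnj6 were both highest in DI-3, at 413 and 394 CPM, against 183 and 126 CPM in all neurons. Pomc, the third classical opioid precursor gene, had 11 UMIs in all neurons (0.495 CPM).

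The design asks whether a painful stimulus or a motor task changes these genes. UMIs were summed per mouse and the 3 groups were fitted together with edgeR's quasi-likelihood test, with Benjamini-Hochberg adjustment over all genes tested and a threshold of 0.05. In neurons, 5 of the 7 genes passed the filter on low counts, and Pdyn and Pnoc did not. Of these 5, 0 were called in formalin against control mice, where 0% of 9103 genes were called (766 at an unadjusted p under 0.05, and 2 called by DESeq2). In rotarod against control mice 0 of 5 were called, where 0% of 9103 genes were called (782 at an unadjusted p under 0.05, and 15 called by DESeq2). In formalin against rotarod mice 0 of 5 were called, where 2.15% of 9103 genes were called, 75 higher and 121 lower in formalin mice.

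Penk in neurons did not separate the groups. It had a lowest, median and highest mouse of 18.9, 40.9 and 81.6 CPM in formalin mice, values of 43.7, 69.6, 31.2, 40.7 and 34.1 CPM in rotarod replicates 1 to 5, and a lowest, median and highest of 15.2, 47.1 and 77.4 CPM in control mice. The rotarod values lay inside the range of both other groups. The log2 fold change was -0.05 (SE 0.26, edgeR adjusted p = 0.980) in formalin against control mice and -0.04 (SE 0.31, adjusted p = 0.967) in formalin against rotarod mice. Among the numerical pairs of formalin mice, replicates 3 and 8 stood at 69.8 and 81.6 CPM, replicates 1 and 6 at 27.8 and 18.9 CPM, and replicates 4 and 9 at 71.3 and 41.3 CPM.

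Oprm1 in neurons also overlapped between the groups. Its lowest, median and highest mouse stood at 26.3, 72.8 and 135 CPM in formalin mice, with 92.6, 108, 90.4, 109 and 84.0 CPM in rotarod replicates 1 to 5, and 34.1, 79.9 and 128 CPM in control mice. The rotarod values lay inside the range of both other groups, and formalin replicates 4 and 9 were the lowest of their group at 26.3 and 41.3 CPM. Means were 74.1 ± 30.7 CPM in formalin (SD, n = 10), 96.9 ± 11.3 CPM in rotarod (n = 5) and 81.1 ± 30.0 CPM in control mice (n = 9). The log2 fold change was -0.22 (SE 0.23, edgeR adjusted p = 0.830) in formalin against control, 0.24 (SE 0.27, adjusted p = 0.867) in rotarod against control, and -0.46 (SE 0.27, adjusted p = 0.392) in formalin against rotarod mice.

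The other receptors also overlapped between groups. Oprl1 averaged 10.3 ± 5.99 CPM in formalin (n = 10), 9.53 ± 2.19 CPM in rotarod (n = 5) and 13.3 ± 4.71 CPM in control mice (n = 9), which gave -0.48 on the log2 scale (SE 0.28, edgeR adjusted p = 0.652) in formalin against control mice. Oprk1 averaged 26.5 ± 10.3 CPM in formalin, 19.8 ± 7.09 CPM in rotarod and 21.99 ± 9.76 CPM in control mice. Oprd1 averaged 28.5 ± 10.6 CPM in formalin, 22.8 ± 3.12 CPM in rotarod and 24.3 ± 3.40 CPM in control mice, and its formalin mice ran from 9.66 to 43.4 CPM. The low-count genes were fitted without the filter over 30598 genes. There the log2 fold change of Pnoc was 0.39 (SE 0.35, edgeR adjusted p = 0.713) and that of Pdyn -0.19 (SE 0.56, adjusted p = 0.960) in formalin against control mice. Pnoc had 52 UMIs in formalin, 36 in rotarod and 61 in control neurons, and Pdyn 14, 14 and 24. The SEs of the 5 genes tested ran from 0.19 to 0.37 on the log2 scale, and the values of -0.48 for Oprl1 and -0.46 for Oprm1 were not called at this depth and number of mice.

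**Figure D4:**
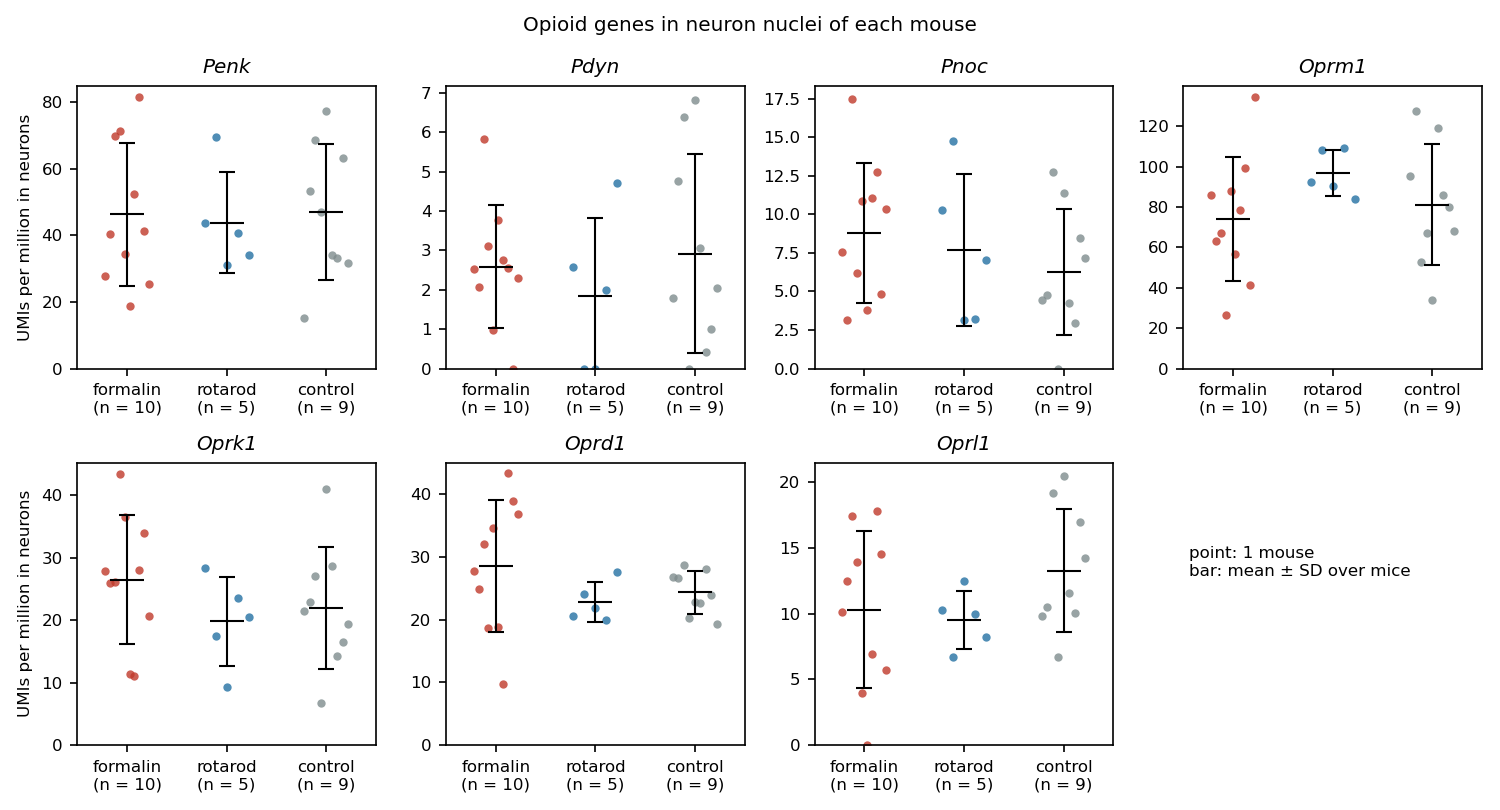
CPM of each opioid gene in the neurons of each mouse (y axis), for formalin, rotarod and control mice (x axis), with mean ± SD. The groups overlap for all 7 genes, and the 5 rotarod mice lie close together for Oprm1 (84.0 to 109 CPM).

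In the dorsal families, where primary pain fibres end, few of the 7 genes had enough counts, with 464 formalin, 335 rotarod and 633 control nuclei in DE and 259, 215 and 439 in DI. In DE, Penk and Oprm1 passed the filter and 0 of these 2 were called in formalin against control, rotarod against control or formalin against rotarod mice, where 0% of 3151 genes were called each time (212, 144 and 328 at an unadjusted p under 0.05 in that order, and 0 called by DESeq2 in each). Penk in DE had a lowest, median and highest mouse of 0, 98.8 and 156 CPM in formalin mice, values of 19.4, 92.6, 39.6, 51.4 and 60.1 CPM in rotarod replicates 1 to 5, and 23.2, 77.4 and 174 CPM in control mice. Its log2 fold change was 0.60 (SE 0.40, edgeR adjusted p = 0.615) in formalin against rotarod mice and 0.18 (SE 0.32, adjusted p = 0.947) in formalin against control mice. Oprm1 in DE averaged 61.6 ± 47.0 CPM in formalin (n = 10), 99.0 ± 57.5 CPM in rotarod (n = 5) and 74.2 ± 54.6 CPM in control mice (n = 9). Its log2 fold change was -0.84 (SE 0.54, edgeR adjusted p = 0.615) in formalin against rotarod mice. In DI, Oprm1 was the 1 gene of the 7 tested and was not called, with 0% of 2356 genes called in formalin against control and in rotarod against control mice (132 and 88 at an unadjusted p under 0.05, and 0 called by DESeq2 in each), and 0.17% (4 genes, and 8 called by DESeq2) in formalin against rotarod mice. Its log2 fold change there was -0.26 (SE 0.40, edgeR adjusted p = 0.901) in formalin against rotarod mice.

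The members with too few counts in these families were fitted without the filter, over 23689 genes in DE and 22629 in DI, and none of the fits described here passed the threshold. Penk in DI averaged 51.6 ± 40.8 CPM in formalin (SD, n = 10), 18.6 ± 20.3 CPM in rotarod (n = 5) and 57.5 ± 59.6 CPM in control mice (n = 9). Without its highest mouse the Penk mean in DI was 11.1 CPM in rotarod (replicate 4 left out) and 38.2 CPM in control mice (replicate 5 left out). The ranges overlapped, with Penk at 0 in DI in 1 formalin and 2 rotarod mice, and the log2 fold change was -0.82 (SE 0.43, edgeR adjusted p = 0.730) in rotarod against control mice. Pnoc in DI had 17 UMIs in formalin, 16 in rotarod and 21 in control mice, and its log2 difference between formalin and control mice was 0.38 (SE 0.53, adjusted p = 0.830 by edgeR). In DE, Pnoc had 0 UMIs in formalin, 2 in rotarod and 6 in control mice, too few to read a direction from (edgeR adjusted p = 0.687 in formalin against control mice).

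**Figure D5:**
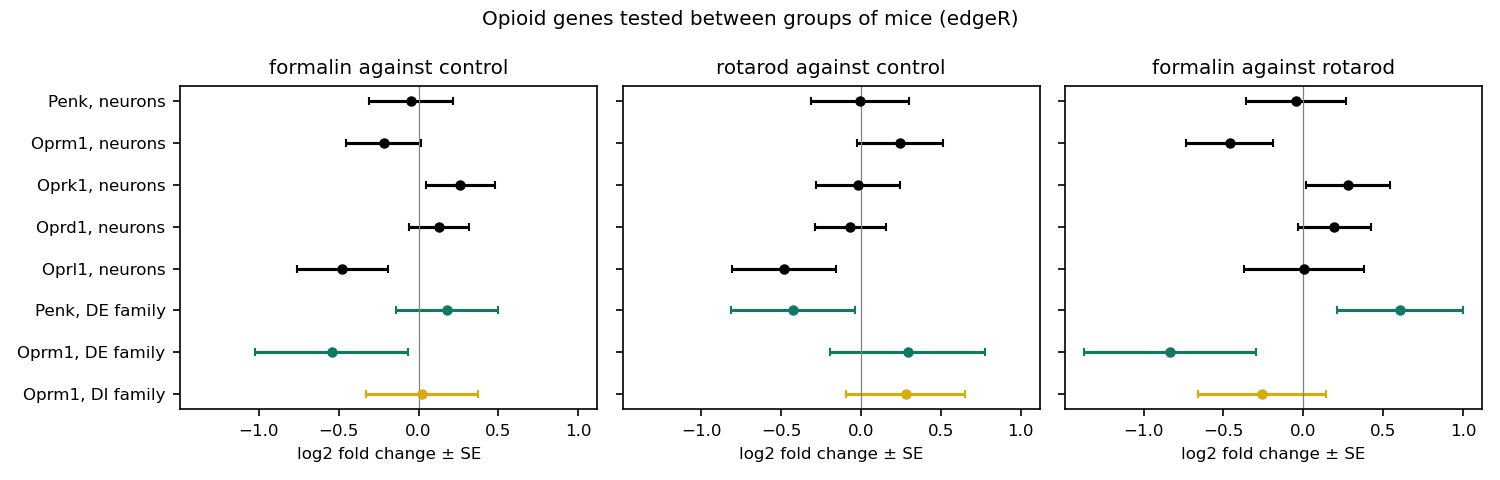
Log2 fold change ± SE of each tested opioid gene (rows, with the unit tested) in the 3 comparisons (panels), from edgeR. The values run from -0.84 for Oprm1 to 0.60 for Penk, both in DE in formalin against rotarod mice, and none passed the threshold.

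Of the 53 list genes tested in neurons, 6 were transmitter identity genes and the others opioid-related genes. Of these 53, 0 were called in formalin against control and 0 in rotarod against control mice. In formalin against rotarod mice 3 were lower in formalin mice and 0 higher, where 2.15% of all 9103 genes were called, 121 lower and 75 higher. They were Kcnj6, a potassium channel subunit opened by opioid receptors, Adcy2, an adenylyl cyclase, and Prkce, a protein kinase C. Kcnj6 averaged 119 ± 10.9 CPM in formalin (n = 10) and 166 ± 38.3 CPM in rotarod mice (n = 5), which is -0.53 on the log2 scale (SE 0.13, edgeR adjusted p = 0.0215). Control mice stood at 128 ± 23.5 CPM for this gene. Prkce averaged 390 ± 50.3 CPM in formalin and 523 ± 78.4 CPM in rotarod mice (log2 fold change -0.50, SE 0.12, edgeR adjusted p = 0.0184), and Adcy2 199 ± 51.1 CPM in formalin and 259 ± 27.4 CPM in rotarod mice (-0.49, SE 0.13, adjusted p = 0.0409).

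These calls depended on the samples and the depth. With formalin samples merged in pairs the log2 fold changes were -0.56 for Kcnj6, -0.51 for Prkce and -0.48 for Adcy2, and the edgeR adjusted p values were 0.0835, 0.0816 and 0.121. With nuclei thinned to 500 UMIs the log2 fold changes were -0.24, -0.49 and -0.29 for the same genes, with adjusted p of 0.657, 0.0668 and 0.5005. With a mouse left out the log2 fold changes ran from -0.61 to -0.42 for Kcnj6, from -0.56 to -0.44 for Prkce and from -0.55 to -0.41 for Adcy2. Without rotarod replicate 3 all 3 calls were lost (adjusted p = 0.101, 0.0663 and 0.0632). Without rotarod replicate 2 the calls of Kcnj6 and Adcy2 were lost (adjusted p = 0.0580 and 0.0848), and without rotarod replicate 1 those of Prkce and Adcy2 (0.0515 and 0.0673). The Adcy2 call was also lost without rotarod replicate 4 or 5 or formalin replicate 2, 3, 8, 9 or 10, with adjusted p from 0.0511 to 0.139. By list, the median log2 fold change in neurons in formalin against rotarod mice was -0.25 over 11 effector genes, -0.12 over 9 G protein genes, -0.02 over 13 receptor regulators, -0.07 over 5 peptidases and 0.04 over 8 peptide processing genes, against 0.01 over all genes tested. It was 0.18 over 6 transmitter identity genes and 0.14 for the 1 other opioid-related gene tested. In the dorsal families the effector median was 0.009 over 9 genes in DE and 0.084 over 8 genes in DI. Over all genes tested it was 0.013 in DE and -0.004 in DI. The G protein median was -0.37 over 4 genes in DE and 0.005 over 3 genes in DI. Of the list genes tested, 0 of 29 in DE and 0 of 26 in DI were called in this comparison.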

How the data were processed

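Single nuclei from the lumbar cord of 24 mice were profiled by Drop-seq, and the table holds raw UMI counts per gene and nucleus, as the authors deposited it, with the authors' class and population of each nucleus in a second table. Per the submitters' processing notes the builds were mm10 and GRCm38. No source used here gave the aligner, the annotation, the use of introns or strand in counting, or a step against doublets, and no doublet caller was added. Total counts per mouse ran from 549903 to 3243587 UMIs. Intervals and the floor of 3 counts cover counting error only.

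Levels are CPM, UMIs per 1000000 UMIs in the same nuclei, pooled or per mouse (at least 10 nuclei of a class, 5 of a family). Conditions were tested on UMIs summed per mouse with edgeR 4.0.16 in R 4.3.3 (TMM, filterByExpr, robust quasi-likelihood, 1 fit over 3 groups), with DESeq2 1.42.0 as an alternative. SEs printed with edgeR log2 fold changes are the size of the fold change divided by the square root of its F statistic, and so are approximate. The procedure was also run on simulated data with the same spread set for all genes. That run does not show whether changes in sparse genes could be called. Groups came from the labels, which count samples as different mice. The 7 genes, the lists and the tests were chosen with earlier results of these data known. Named genes are the 7 members, the 5 genes most like each, and list genes that were called, while further list genes in the text were picked with their values in view. Alternatives covered the tool, scaling, filter, nuclei per mouse, the groups fitted, the 3 control mice with titles in cx, merged formalin samples, thinning to 500 UMIs, a replicate block and each mouse left out. Sequences of Penk and Pnoc were read from GRCm38 with GENCODE M21, and that of Pdyn is not reported here.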

Additional observations from a re-analysis of the deposited data

Results flagged for a closer look

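In 62 groups of 5 to 10 mice, 1 for each gene, group and unit that could be searched, 7 had a mouse far above the others of its group in Dixon's test, and chance gives about 1 in 20 for continuous values, a rate that does not hold where the other mice are at 0, as for Pnoc in DE and Pdyn in DI. All 7 lay in the DE and DI families, where few UMIs stand behind a value. Penk in DI stood at 145 CPM in formalin replicate 8 (6 UMIs), against 64.0 CPM in the next mouse, and at 212 CPM in control replicate 5 (16 UMIs), against 60.8 CPM in the next. Pnoc in DI stood at 79.2 CPM in rotarod replicate 2 (6 UMIs), against 21.1 CPM in the next, and Pnoc in DE at 15.4 CPM in the same mouse (2 UMIs), with the other rotarod mice at 0. Oprk1 in DE stood at 97.2 CPM in rotarod replicate 1 (5 UMIs), against 19.3 CPM in the next. Oprl1 in DI stood at 48.4 CPM in formalin replicate 8 (2 UMIs), against 10.5 CPM in the next. Pdyn in DI stood at 3.61 CPM in rotarod replicate 5 from 1 UMI, with the other rotarod mice at 0.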

How the results depend on the processing

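The opioid genes were refitted 548 times in 24 pairs of gene and comparison, and 0 fits passed the threshold (lowest adjusted p = 0.157 in edgeR or DESeq2). The sign changed in 50 fits of 11 pairs, whose own log2 fold changes were at most 0.29 in size. With no filter, Oprl1 in neurons became -0.051 in formalin against rotarod and Oprm1 in DI -0.16 in formalin against control mice, which was -0.026 with more nuclei per mouse and -0.011 with formalin samples merged. After thinning, Oprm1 in neurons became -0.20 in rotarod against control and Penk 0.093 in formalin against rotarod mice. Penk became 0.014 in rotarod against control mice without the control mice with titles in cx. With a mouse left out, the neuron values ran from -0.17 to 0.012 (Oprd1) and -0.12 to 0.068 (Oprk1) in rotarod against control, from -0.091 to 0.14 (Oprl1) in formalin against rotarod, and for Penk from -0.18 to 0.066 in formalin against control, -0.22 to 0.11 in rotarod against control and -0.16 to 0.17 in formalin against rotarod mice. Oprm1 ran from -0.29 to 0.49 in DE in rotarod against control, and in DI from -0.16 to 0.16 in formalin against control, -0.21 to 0.55 in rotarod against control and -0.54 to 0.22 in formalin against rotarod mice.

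Counts of called genes moved more. In neurons, formalin against control gave 2 with DESeq2, 31 with no filter and 0 to 1 with a mouse left out. Rotarod against control gave 15 with DESeq2, 43 with no filter, 1 with only these groups fitted, 3 without the cx mice, 2 with formalin samples merged and 0 to 11 with a mouse left out. Formalin against rotarod gave 283 without the cx mice, 4 with formalin samples merged, 10 after thinning and 60 to 239 with a mouse left out, lowest without rotarod replicate 3. In DE, rotarod against control gave 2 with no filter, 1 with only these groups and 2 merged, and formalin against rotarod gave 2 with no filter and 0 to 7 with a mouse left out. In DI, formalin against control gave 5 with no filter, 1 with more nuclei and 0 to 1 with a mouse left out. Rotarod against control gave 2 with no filter, 1 with only these groups and 1 merged. Formalin against rotarod gave 8 with DESeq2, 2 with no filter, 0 merged, 1 after thinning and 1 to 6 with a mouse left out. The cause was not tested. Same-numbered formalin and rotarod mice did not pair, with correlations of their deviations in neurons from -0.107 to 0.0462. With the replicate block, formalin against rotarod gave 31 called genes in neurons and 7 in DE, Penk in neurons became 0.025, and Kcnj6, Prkce and Adcy2 had edgeR adjusted p of 0.0629, 0.123 and 0.198. With only the 2 groups fitted Adcy2 had 0.0516. All 99 alternative levels of the opioid genes moved by less than the spread between mice. With a pseudocount of 1, 4 of the 5 most like genes stayed for Penk and Oprm1, 3 for Pdyn and Oprd1, 2 for Pnoc and Oprk1 and 1 for Oprl1, and the correlations of Prox1 (0.50), Pax8 (0.52) and Eif4g2 (0.52) were lower. No mouse had enough oligodendrocyte precursors for the alternative with more nuclei per mouse. Low UMI counts per mouse limit Pdyn, Pnoc and Oprl1 most.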

Other observations

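Nuclei that the authors marked as discarded also held opioid gene UMIs. Penk stood at 43.3 CPM in formalin mice (72 UMIs in 2390 nuclei), 25.3 CPM in rotarod mice (8 UMIs in 448 nuclei) and 31.0 CPM in control mice (26 UMIs in 980 nuclei). Oprm1 stood at 54.7 CPM in formalin, 38.0 CPM in rotarod and 44.2 CPM in control mice. Pdyn had 12 UMIs in discarded formalin nuclei, 0 in rotarod and 1 in control nuclei, which is 7.21 CPM in formalin and 1.19 CPM in control mice. Oprk1 had 24 UMIs in formalin (14.4 CPM), 1 in rotarod (3.17 CPM) and 4 in control mice (4.77 CPM). Oprd1 stood at 10.8 CPM in formalin, 9.50 CPM in rotarod and 4.77 CPM in control mice. Pnoc and Oprl1 were not highest in formalin mice. In the same order of groups, Pnoc stood at 3.00, 0 and 3.58 CPM, and Oprl1 at 4.81, 6.33 and 5.97 CPM. Poisson intervals of formalin and control mice overlapped for each gene, as for Penk (33.8 to 54.5 and 20.3 to 45.5 CPM). For Oprk1 they were 9.24 to 21.5 and 1.30 to 12.2 CPM. These values are pooled over nuclei and were not tested.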
